A study of Mus musculus with 53 samples.

Results

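Tumours of the whole genome doubled form (WGD+) were compared with tumours of the form without doubling (WGD-) in mice that received an antibody against PD-L1. The comparison rests on 6 of the 53 tumour libraries of the study, 3 of each form, chosen by the group named in the sample titles. All 6 tumours grew from TA3 Hauschka cells, a mouse mammary tumour line engineered into both forms, mixed with Matrigel and placed in the inguinal mammary fat pad of female A/J mice aged 6 weeks. A/J mice have a working immune system. Antibody was given for 14 days, and the 6 libraries share host strain, antibody and parent line. Beside them stand the isotype control antibody groups (3 WGD- and 3 WGD+ libraries) and the anti-CD8 groups (2 WGD- and 3 WGD+ libraries) of the same experiment. A separate time course in A/J mice, with no antibody named, gives 3 WGD- and 3 WGD+ tumours of day 14. The labels do not say how doubling was brought about, whether either form is a single clone, at what dose the antibody was given or whether each replicate is an animal of its own. The p-values therefore reflect only how far these libraries vary, which may be technical.

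Whole genome doubling gives a cell an extra copy of its chromosome set and is common in carcinomas. PD-L1, the product of Cd274, is carried by tumour and myeloid cells and restrains T cells through PD-1, the product of Pdcd1; antibodies against it are used to release those T cells. ATF4 is a transcription factor that cells make when amino acids run short or protein folding is under stress. Its known targets import amino acids, make serine, glycine and asparagine, and load transfer RNAs.

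Levels below are log2(CPM + 1), where CPM is the usual depth-scaled read count after the scaling of the authors (1 read was worth 0.0623 to 0.107 CPM), and a difference is the WGD+ mean minus the WGD- mean on that scale, which understates the change of genes with low levels. The 6 libraries held 10.8 to 13.7 M assigned reads. A gene is called when the adjusted p of limma, fitted over all 17 libraries of the experiment, lies under 0.05. Epithelial markers were present in all 6 libraries: Krt8, an epithelial keratin, lay between 8.67 and 9.72, and Epcam, an epithelial adhesion molecule, between 7.47 and 8.17. In WGD- replicate 3 the markers of immune and stromal cells lay below those of the other WGD- replicates, and in WGD+ replicate 3 those of skeletal muscle lay above all others. Outside the comparison, replicate 2 of the WGD+ isotype group went against its label in part. Its Lpar3 level of 3.22 was near the WGD- isotype range of 3.58 to 4.57 and far from the 0.78 and 0.85 of the other WGD+ isotype libraries, while its Psat1 level of 7.78 was on the WGD+ side. It enters the anti-PD-L1 comparison through the shared estimate of the spread and the filter on low values, which left 13815 genes without it.

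Of 13840 genes tested, 97 were called (0.701%), 42 higher in WGD+ tumours (0.303%) and 55 lower (0.397%). At an unadjusted p under 0.05 there were 3067 genes (22.2%). The 3 libraries of each form did not overlap in any of the 97 called genes. Those genes were selected on these same libraries, so this adds no support. Among all genes tested 2798 were without overlap (20.2%, 11.1% higher and 9.08% lower). The median difference over all genes tested was 0.01. Genes for amino acid uptake, serine synthesis and transfer RNA loading were among those that rose, and Lpar3, Tnxb, Itga7 and Prkcd among those that fell. The number of calls depended on single libraries. Leaving out WGD- replicate 1 left 1 call, leaving out its replicate 2 left 12, and leaving out its replicate 3 gave 3091 (22.4%); in the WGD+ group the same fits gave 3, 4 and 31. All 97 calls were among the 3091, and with replicate 2 of the WGD+ isotype group out of the fit all 97 were among 234 calls.

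Slc7a11 had the largest rise among genes with a symbol of their own. It encodes the transport chain of the cystine and glutamate exchanger, which brings in cystine for glutathione, and lies on chromosome 3 (49892526 to 50443614 in mm10, minus strand). Its level was 3.48, 4.27 and 4.22 in WGD- replicates 1 to 3 and 6.93, 6.34 and 6.49 in the WGD+ replicates. The highest WGD- library stayed more than 2 units below the lowest WGD+ library. The difference was 2.60 (SE 0.41, 95% interval 1.72 to 3.48, limma adjusted p = 0.0148), and it was called in 2 of 6 fits that left out 1 library. Slc6a9, a glycine transporter gene, was at 3.84, 3.10 and 3.73 in WGD- and at 5.70, 5.32 and 5.20 in WGD+ tumours. Its difference was 1.85 (SE 0.29, adjusted p = 0.0132).

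Enzymes of serine synthesis rose with these transporters. Phgdh, which turns a glycolytic intermediate toward serine (chromosome 3, 98313170 to 98339990, minus strand), was at 7.77, 8.34 and 8.99 in WGD- and at 9.59, 9.94 and 9.46 in WGD+ tumours. WGD- replicate 3 lay nearest to the WGD+ libraries. The difference was 1.30 (SE 0.26, adjusted p = 0.0335). Psat1, the next enzyme of the pathway (chromosome 19, 15904678 to 15947337, minus strand), was at 6.57, 6.74 and 6.67 against 7.55, 7.62 and 7.70. These groups were tight, and the difference of 0.96 (SE 0.13, adjusted p = 0.0107) was called in 5 of 6 fits that left out 1 library, the exception being the fit without WGD- replicate 1. Shmt2, which makes glycine from serine in mitochondria, rose by 1.06. Mthfd2, a mitochondrial folate enzyme downstream of it, was at 7.16, 6.96 and 7.66 in WGD- and at 8.58, 8.20 and 8.15 in WGD+ tumours, a difference of 1.05 (SE 0.17, adjusted p = 0.0148). Asns, which makes asparagine (chromosome 6, 7675169 to 7693254, minus strand), was at 7.70, 7.64 and 8.31 against 8.89, 8.81 and 8.67, a difference of 0.91 (SE 0.16, adjusted p = 0.0174). For Asns, Mthfd2 and Shmt2 too WGD- replicate 3 was the highest of its group.

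This list was chosen with earlier results of these data known, so its counts are no independent support. Of the 12 genes listed as ATF4 targets, 5 rose (0.303% of all genes tested did), none fell, and all 12 differences were positive. The list median was 0.94, against 0.01 over all genes tested and 0.10 over those with a mean level above 5. The 5 that rose were Psat1, Mthfd2, Asns, Phgdh and Shmt2. Chac1, a list member that degrades glutathione, named like Atf4 after its value was seen, differed by 1.45 (SE 0.33) at an adjusted p of 0.0513. Atf4 itself differed by 0.45 (SE 0.18, adjusted p = 0.166). The mean level of the list was 6.62, 6.62 and 7.14 in the WGD- and 7.82, 7.74 and 7.41 in the WGD+ libraries, without overlap. The number that rose depended on single libraries: it was 0 without WGD- replicate 1, 1 without WGD- replicate 2, WGD+ replicate 1 or WGD+ replicate 2, and 3 without WGD+ replicate 3. Without WGD- replicate 3 it was 9, where 9.88% of all genes were called higher, and in a fit of only the 6 libraries it was 0. Of the 12 genes listed under NRF2 and glutathione, Slc7a11 alone was called, and the list median was 0.14.

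Further lists for amino acid use were chosen after the calls were seen and give no independent support. Of all genes tested 0.303% rose. Of 20 cytosolic aminoacyl-tRNA synthetases, enzymes that load transfer RNAs, 3 rose (Gars, Lars and Mars) and all 20 differences were positive, with a median of 0.59. Gars, for glycine, was at 7.63, 7.51 and 8.05 in WGD- and at 8.76, 8.59 and 8.56 in WGD+ tumours, a difference of 0.90 (SE 0.14, adjusted p = 0.0132). Lars, for leucine, rose by 0.89 and Mars, for methionine, by 0.78. Xpot, which exports transfer RNA from the nucleus, rose by 0.75. None of the 20 was called without WGD- replicate 1, WGD- replicate 2, WGD+ replicate 1 or WGD+ replicate 2, or in a fit of only the 6 libraries; 2 were called without WGD+ replicate 3 and 16 without WGD- replicate 3, the fit in which 9.88% of all genes were called higher. Of 18 serine, glycine and one-carbon enzymes 4 rose, with a list median of 0.45. That list median was 0.44 under isotype, 0.12 under anti-CD8 and 0.02 at day 14. Proline genes were mixed: Prodh, which starts proline breakdown, rose by 1.24 and Aldh18a1, which starts proline synthesis, by 0.84, while the median over the 10 proline and arginine genes tested was -0.10. Of 14 amino acid transporters, Slc7a11 and Slc6a9 were called. These genes outside the ATF4 list, apart from Slc7a11, Slc6a9 and Prodh, were named after their values were seen.

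**Figure D1:**
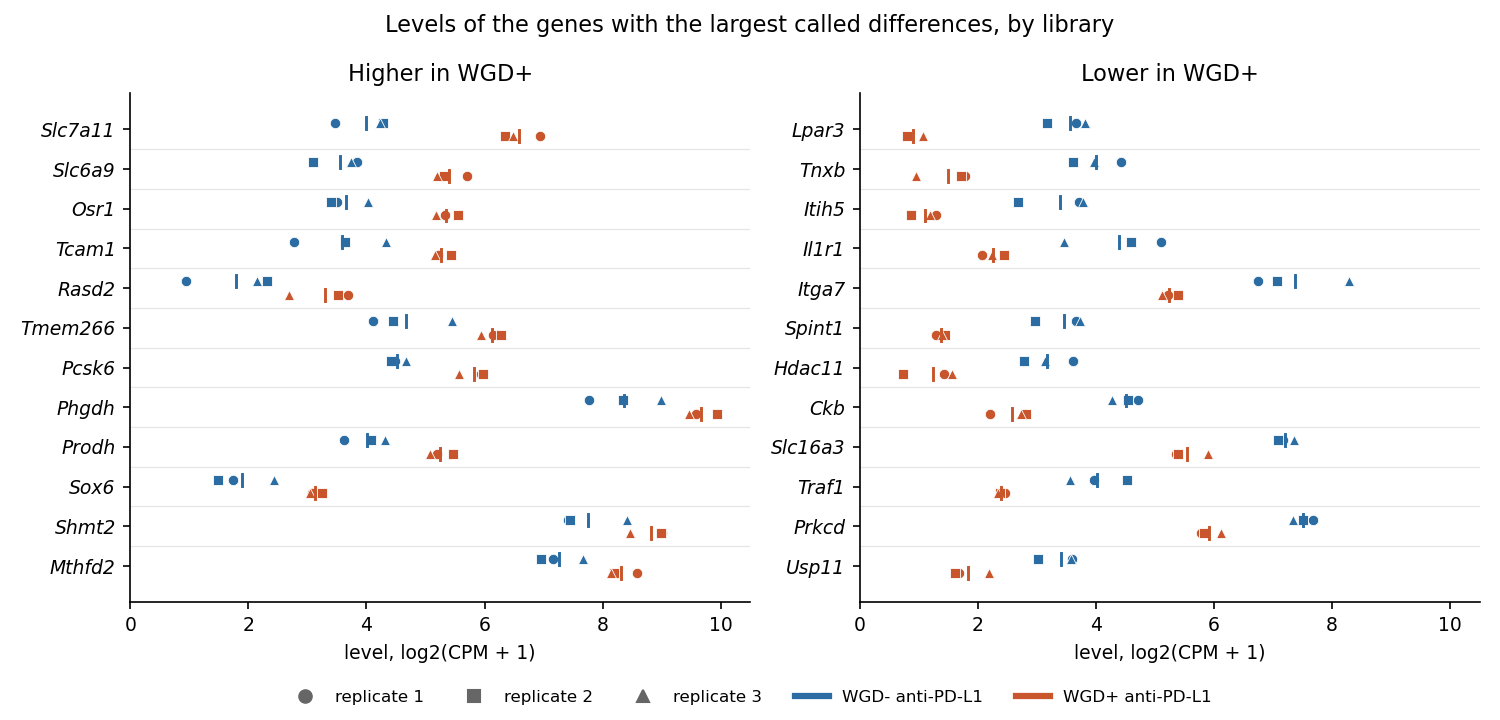
Level of the 12 genes with the largest called rise (left) and the 12 with the largest called fall (right) in WGD+ against WGD- tumours under anti-PD-L1, with log2(CPM + 1) on the horizontal axis. Each symbol is 1 library, its shape gives the replicate and a short bar the mean of 3. The 24 genes were taken only from called genes whose groups do not overlap. Slc7a11 and Lpar3 show the widest gaps between means.

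The start regions of 3 of the genes that rose hold the letters TGATGNAA, the core of the C/EBP-ATF response element to which ATF4 is known to bind, searched on both strands (as TTNCATCA on the other). Shown are the 120 bases before the RefSeq start site in GRCm38.p6, the build also called mm10, in the sense of each gene, with matches in capitals.
Slc7a11, chr3:50443614-50443733, minus strand: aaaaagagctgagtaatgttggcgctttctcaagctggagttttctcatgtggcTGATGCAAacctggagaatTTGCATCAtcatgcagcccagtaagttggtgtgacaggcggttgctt
Asns, chr6:7693210-7693329, minus strand: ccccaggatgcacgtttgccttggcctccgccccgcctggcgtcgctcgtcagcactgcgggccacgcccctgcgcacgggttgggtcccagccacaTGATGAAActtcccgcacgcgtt
Gars, chr6:55037881-55038000, plus strand: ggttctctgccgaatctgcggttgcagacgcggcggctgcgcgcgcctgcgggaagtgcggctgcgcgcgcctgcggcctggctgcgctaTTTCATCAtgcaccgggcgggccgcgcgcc

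Counted from the start site, the matches begin at -66 and -47 in Slc7a11, at -23 in Asns and at -30 in Gars. In windows of 300 bases, from 250 before to 50 after the start, these letters were present in 3 of the 33 called higher genes with a RefSeq entry (9.09%), 3 of the 46 called lower genes (6.52%) and 316 of the 10812 genes tested that have an entry (2.92%). Of the 10 ATF4 list genes with an entry 3 held them, among them Chac1 and Trib3, which were not called. Phgdh, Psat1, Shmt2 and Mthfd2 had no match in this window. A match is a description of letters and no measure of binding.

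Other genes that rose belonged to none of the lists. Osr1, a zinc finger transcription factor of kidney and limb development, was at 3.51, 3.40 and 4.03 in WGD- and at 5.33, 5.55 and 5.18 in WGD+ tumours, a difference of 1.71 (SE 0.27, adjusted p = 0.0132). Sox6, another transcription factor gene, rose by 1.24. Pcsk6, which encodes a proprotein convertase, was at 4.48, 4.41 and 4.67 against 5.93, 5.97 and 5.57, a difference of 1.30 (SE 0.20, adjusted p = 0.0132). Tcam1, an adhesion molecule gene known from testis, rose by 1.69, Tmem266, a membrane protein gene, by 1.45, and Rasd2, which encodes a small Ras-like GTPase, by 1.50. Genes of DNA replication and repair, named after their values were seen, were Prim1, the catalytic subunit of primase (difference 0.91, SE 0.13, adjusted p = 0.0121), Brca2 (0.87) and Rad50 (0.68). Prim1 was at 5.19, 5.12 and 5.15 in WGD- and at 6.19, 5.89 and 6.11 in WGD+ tumours. The largest difference of all belonged to the gene model A530065N20Rik on chromosome 13 (60029711 to 60116669, plus strand), with 0.12, 0.12 and 1.33 in WGD- and 4.14, 4.57 and 3.40 in WGD+ tumours (3.51, SE 0.62, adjusted p = 0.0215). WGD- replicates 1 and 2 held a single read each there, worth 0.0837 and 0.0903 CPM, so the size of this difference rests on few reads.

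Lpar3 had the largest fall of the 55 genes; it encodes a receptor that binds the lipid lysophosphatidic acid and lies on chromosome 3 (146220963 to 146286186, plus strand). It was at 3.67, 3.18 and 3.82 in WGD- and at 0.82, 0.80 and 1.07 in WGD+ tumours, a difference of -2.66 (SE 0.48, 95% interval -3.68 to -1.64, adjusted p = 0.0215). The 3 WGD+ libraries all lay close to 1, and the lowest WGD- library was well above them. Other genes that fell encode proteins of the matrix or cell surface, though no gene was called in the lists of fibroblast and matrix genes (14 tested, 2 at an unadjusted p under 0.05) or mesenchymal genes (10 tested, 1). Tnxb, the matrix glycoprotein tenascin X, was at 4.42, 3.62 and 3.97 against 1.79, 1.72 and 0.95 (difference -2.52, SE 0.46, adjusted p = 0.0215). Itih5, which encodes a protein that binds hyaluronan in the matrix, fell by 2.28. Itga7, a laminin-binding integrin chain, was at 6.75, 7.06 and 8.28 against 5.23, 5.39 and 5.11 (difference -2.12, SE 0.44, adjusted p = 0.0448). Spint1, an inhibitor of epithelial serine proteases, was at 3.66, 2.97 and 3.72 against 1.29, 1.44 and 1.39 (difference -2.08, SE 0.33, adjusted p = 0.0132). For Lpar3, Itih5, Itga7 and Spint1 the WGD- replicate with low immune and stromal markers, replicate 3, was the highest of its group.

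Prkcd, which encodes protein kinase C delta (chromosome 14, 30595354 to 30626210, minus strand), had the smallest adjusted p of the 97 genes. Its level was 7.68, 7.50 and 7.34 in WGD- and 5.78, 5.83 and 6.11 in WGD+ tumours. Both groups were tight, and the difference was -1.60 (SE 0.19, adjusted p = 0.00315). Among the 49 named genes called, Prkcd alone stayed called when each of the 6 libraries was left out in turn. In no such fit but that without WGD- replicate 3 were 25 of them called. All 49 kept the sign of the difference in all alternatives run. Where groups do not overlap, leaving out 1 library cannot change the sign. The other alternatives reuse the same libraries, so the kept sign adds no support. Single metabolic genes fell: Slc16a3, a lactate exporter, by 1.66, Ckb, the brain form of creatine kinase, by 1.92, and, named after their values were seen, Pfkfb4, a regulator of glycolysis, by 1.31 and Idh1, cytosolic isocitrate dehydrogenase, by 0.80. In the list of glycolysis and hypoxia genes, none of 15 was called, none had an unadjusted p under 0.05, and the median was -0.17. Other genes that fell were Hdac11, a histone deacetylase, by 1.94 and, named in the same way, Tet2, a DNA demethylation enzyme, by 0.73. Usp11, a deubiquitinase gene on chromosome X, fell by 1.57.

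Il1r1, Traf1 and Csf3r, known from immune signalling, fell, although the lists of immune cells and signals held at most 1 called gene each. Il1r1, the interleukin-1 receptor, was at 5.10, 4.60 and 3.46 in WGD- and at 2.08, 2.44 and 2.25 in WGD+ tumours (difference -2.13, SE 0.39, adjusted p = 0.0222). Traf1, a signalling adaptor of TNF receptors induced by NF-kB (chromosome 2, 34941750 to 34961772, minus strand), was at 3.96, 4.53 and 3.56 against 2.46, 2.37 and 2.35 (difference -1.62, SE 0.26, adjusted p = 0.0132). Csf3r, the receptor for granulocyte colony stimulating factor, was at 5.10, 5.86 and 4.73 against 4.14, 4.07 and 4.06 (difference -1.14, SE 0.24, adjusted p = 0.0394). In these 3 genes WGD- replicate 3 was the lowest of its group, though above every WGD+ library. Named after their values were seen, Ltb4r1, a leukotriene B4 receptor, fell by 1.19, Fes, a tyrosine kinase of myeloid cells, by 0.93, and Coro7, a coronin family gene, by 1.13. Traf1 was the called member among 9 NF-kB feedback genes (median -0.61) and Csf3r that among 8 neutrophil and monocyte genes tested (median -1.38). An unadjusted limma p under 0.05 was found for 5 of these 9 and 6 of these 8 genes, against 22.2% of all genes tested. The summed level of the neutrophil and monocyte markers was 206 to 614 CPM in WGD- and 104 to 141 CPM in WGD+ libraries. Ly6g was at 0 in 1 of the 6 libraries and the other 8 markers at 0 in none. The part of these cells in the fall of the genes above was not tested, and in bulk tumours fewer cells of a type and less RNA per cell cannot be told apart.

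No gene was called in the lists of antigen presentation, interferon response, lymphocytes or macrophages. At an unadjusted p under 0.05 there were 0 of 14 MHC class I genes, 0 of 8 MHC class II genes, 1 of 16 interferon-gamma response genes, 0 of 21 type I interferon genes, 3 of 14 T cell genes, 3 of 10 cytotoxic lymphocyte genes and 4 of 13 macrophage genes, against 22.2% of all genes tested. The libraries of a form differed widely. The mean level of the interferon-gamma response list was 7.17, 7.48 and 4.82 in WGD- and 4.07, 6.02 and 7.32 in WGD+ replicates 1 to 3, so that WGD- replicate 3 lay with the lower WGD+ libraries and WGD+ replicate 3 with the higher WGD- libraries. MHC class II genes were low in the same WGD- replicate (7.76, 7.89 and 4.73 against 4.83, 5.74 and 7.12). T cell markers were at 3.05, 3.84 and 1.48 against 1.36, 1.92 and 2.43, and cytotoxic lymphocyte markers at 2.80, 3.46 and 1.01 against 0.69, 1.37 and 2.27. List medians were -0.59 for the interferon-gamma response, -0.87 for MHC class II, -0.94 for T cells and -1.03 for cytotoxic lymphocytes. The interferon-gamma median turned to 0.17 and that of MHC class I from -0.38 to 0.06 without WGD+ replicate 1. Without WGD- replicate 3, where 12.5% of all genes were called lower, the lower calls were 10 of 14 T cell genes, 8 of 10 cytotoxic genes, 7 of 13 macrophage genes, 1 of 16 interferon-gamma genes and 0 of 8 MHC class II genes. None of the T cell, cytotoxic, macrophage or interferon-gamma genes was called when any one of the other 5 libraries was left out.

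The targets of the antibodies themselves were among the genes not called. Cd274 was at 6.00, 6.54 and 4.01 in WGD- and at 3.16, 4.90 and 5.90 in WGD+ tumours, a difference of -0.86 (SE 0.73, 95% interval -2.45 to 0.72, limma adjusted p = 0.506). Pdcd1, the gene for PD-1, was at 2.42, 3.86 and 0.54 against 0.95, 1.68 and 2.27 (difference -0.64, SE 0.66, adjusted p = 0.584). Cd8a and Cd8b1, the chains of the CD8 co-receptor, differed by -0.90 (SE 0.77) and -0.81 (SE 0.64). Levels of Cd274, Pdcd1, Cd8a and Cd8b1 overlapped between the forms. WGD- replicate 3 and WGD+ replicate 1 were the lowest of their groups in all 4 genes, as they were for the interferon-gamma and T cell lists.

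**Figure D2:**
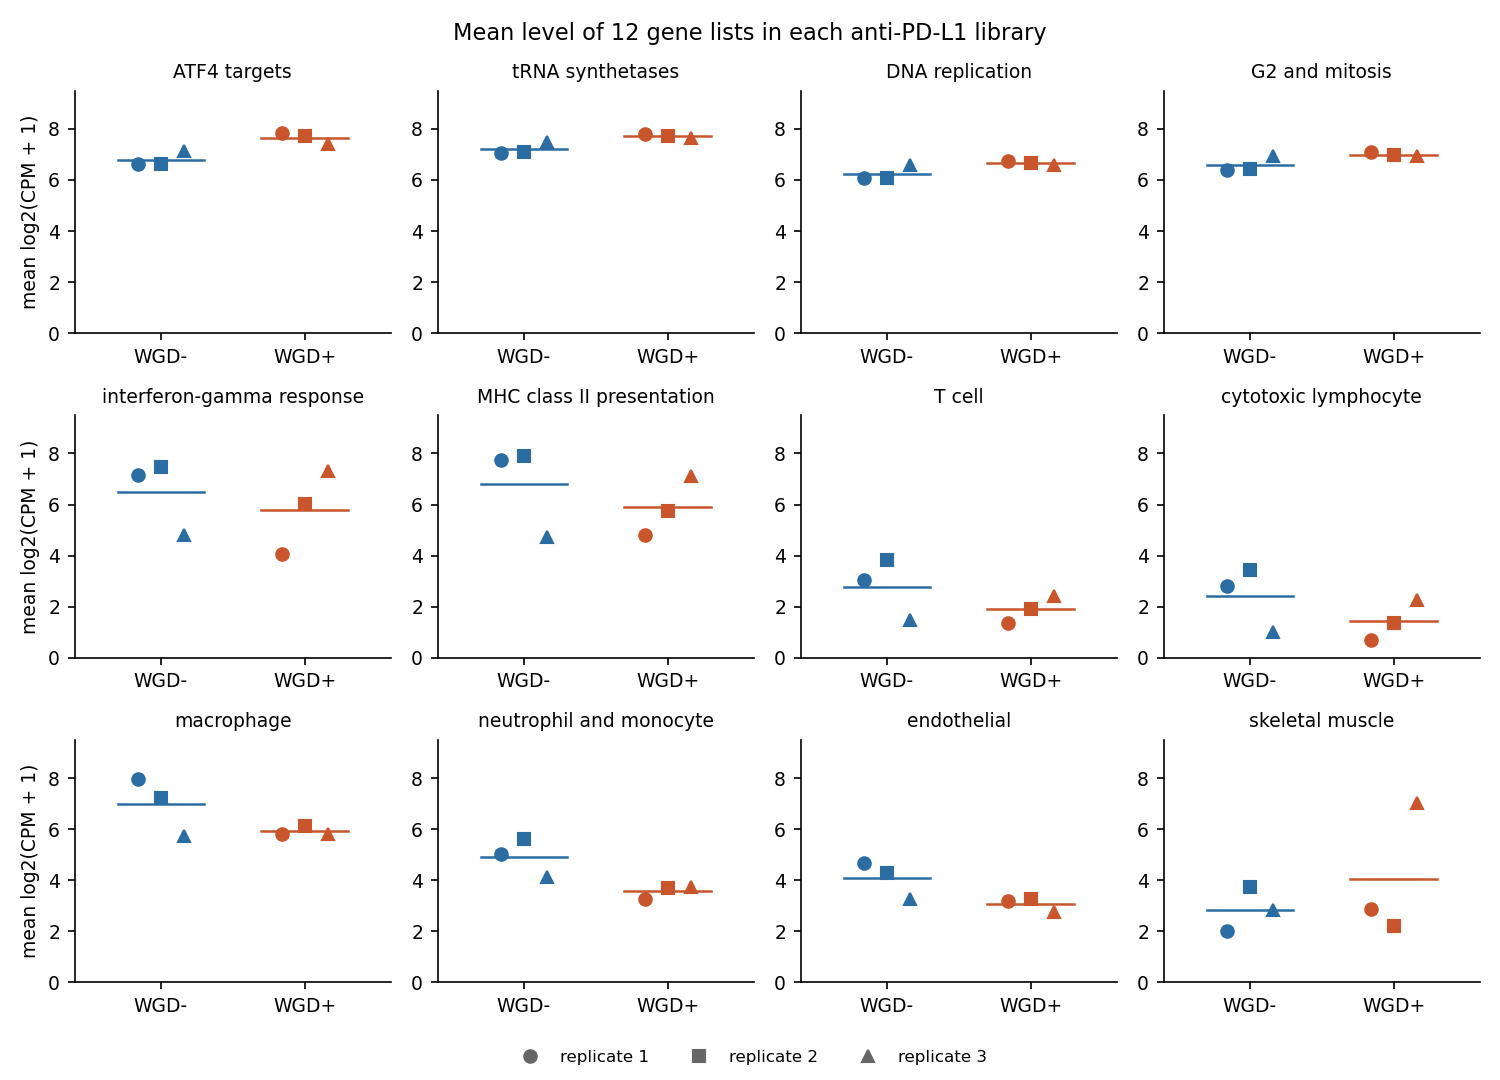
Mean level of 12 gene lists in each anti-PD-L1 library, as mean log2(CPM + 1) over the genes tested of the list; symbols are the replicates 1 to 3 and the line is the mean of 3 libraries. The libraries of the forms do not overlap in ATF4 targets, tRNA synthetases, DNA replication, or neutrophil and monocyte genes. In G2 and mitosis the highest WGD- and the lowest WGD+ library both stand at 6.94. The tRNA synthetase list was chosen after the calls were seen. WGD- replicate 3 lies within or below the WGD+ range in the interferon-gamma, MHC class II, T cell, cytotoxic and macrophage lists. In the neutrophil and monocyte list it lies above that range (4.12 against at most 3.75). Skeletal muscle markers stand at 7.01 in WGD+ replicate 3 against at most 3.74 in the other 5 libraries.

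Endothelial, macrophage and complement lists were low in the same WGD- replicate. Endothelial markers averaged 4.67, 4.27 and 3.27 in WGD- and 3.18, 3.28 and 2.75 in WGD+ libraries. All 10 differences were negative (median -1.04), none was called and 8 had an unadjusted p under 0.05, against 22.2% of all genes tested. Emcn, the endothelial sialoprotein endomucin, was at 4.15, 4.43 and 3.18 against 2.81, 2.60 and 2.51 (difference -1.28, SE 0.32, adjusted p = 0.0644). Macrophage markers averaged 7.97, 7.21 and 5.73 against 5.80, 6.13 and 5.82 (median difference -1.08), and complement genes 6.42, 5.79 and 3.63 against 3.23, 3.85 and 4.61 (median difference -1.43). Among chemokines none of 13 was called; Cxcl5, which attracts neutrophils, was at 4.68, 4.38 and 1.04 against 0.23, 0.86 and 0.23 (difference -2.93, SE 0.68, adjusted p = 0.0546). Without WGD- replicate 3, 7 of 10 endothelial and 7 of 9 complement genes were called lower, in a fit that called 12.5% of all genes lower; without any one of the other 5 libraries none of either list was. Skeletal muscle markers summed to 2753 CPM in WGD+ replicate 3 and to 38.1 to 184 CPM in the other 5 libraries, and none of the 11 was called. Myh4, a fast muscle myosin, was at 9.13 in that library and at most 3.13 in the others.

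Genes of the cell cycle leaned the other way without passing the test. Of 20 genes of G2 and mitosis none was called and all 20 differences were positive (median 0.42). An unadjusted p under 0.05 was found for 13 of them, against 22.2% of all genes tested. Cenpf, a kinetochore protein gene, was at 5.79, 5.94 and 6.55 in WGD- and at 6.71, 6.67 and 6.59 in WGD+ tumours (difference 0.57, SE 0.18, adjusted p = 0.107). Of 18 DNA replication genes none was called, 11 had an unadjusted p under 0.05 and 17 differences were positive (median 0.51). The median over all genes with a mean level above 5 was 0.10. Under isotype, under anti-CD8 and at day 14 the list medians were 0.29, 0.04 and 0.27 for mitosis. For replication they were 0.47, 0.08 and 0.06. Mcm2, a subunit of the replicative helicase, differed by 0.71 (SE 0.17, adjusted p = 0.0545). WGD- replicate 3 was again nearest to the WGD+ libraries, with a mean mitotic level of 6.94 against 6.38 and 6.44 in the other WGD- and 6.94 to 7.08 in the WGD+ libraries. Without it, 15 of 20 mitotic and 13 of 18 replication genes were called higher, where 9.88% of all genes were, and none of either list was called when any one of the other 5 libraries was left out. Of 15 p53 targets none was called (median 0.33). Cholesterol synthesis genes had a median of -0.46, with 11 of 12 differences negative, 10 of 12 without overlap (20.2% of all genes tested) and none called.

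Whether the WGD difference depended on the antibody was tested as the difference of differences. No gene was called by limma for anti-PD-L1 against isotype, with 232 genes at an unadjusted p under 0.05 (1.68%) and 0 calls by voom. None was called against anti-CD8 either, with 2176 genes at an unadjusted p under 0.05 (15.7%) and 0 calls by voom. Without WGD- anti-PD-L1 replicate 3 the count against anti-CD8 became 705, 214 with the more positive and 491 with the more negative difference under anti-PD-L1, and against isotype it stayed 0. For Slc7a11 the difference under anti-PD-L1 exceeded that under isotype by 0.96 (95% interval -0.29 to 2.21) and that under anti-CD8 by 0.05 (-1.27 to 1.38). For Lpar3 these values were -0.23 (-1.67 to 1.21) and 0.17 (-1.37 to 1.70). The intervals are wide, so equal effects are not shown. The genes with the smallest p were Apoc1, an apolipoprotein gene (2.13, adjusted p = 0.479), and Cldn4, a tight junction gene (1.72, adjusted p = 1.00), against isotype, and Kcnk1, a potassium channel gene (1.22, adjusted p = 0.271), and Traf1 (-1.90, adjusted p = 0.271) against anti-CD8.

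Set side by side, the WGD differences of the 97 called genes mostly had the same sign in the other comparisons. Medians of several immune and stromal lists turned positive under anti-CD8, though not all did. No library is shared between the comparisons, though the antibody groups share the fitted spread. Under isotype 152 genes were called (1.1%), 0.434% of those tested higher and 0.665% lower. Under anti-CD8 there were 217 (1.57%), 0.578% higher and 0.99% lower, and at day 14, of 13478 tested, 60 (0.445%), 0.0445% higher and 0.401% lower. Of the 42 genes that rose under anti-PD-L1, the difference was also positive for 42 under isotype, 41 under anti-CD8 and 39 at day 14. Of the 55 that fell it was also negative for 55 under isotype, 50 under anti-CD8 and 53 of 54 tested at day 14. Over all genes tested the same sign was found for 77.4% and 77.7% of genes with positive and negative differences under isotype, 54.7% and 55.8% under anti-CD8, and 66.9% and 71.5% at day 14. Calls in the same direction were shared for 41 genes with isotype (42.3% of the anti-PD-L1 and 27% of the isotype calls), 24 with anti-CD8 (24.7% and 11.1%) and 2 with day 14 (2.06% and 3.33%). Without WGD+ isotype replicate 2 there were 66 isotype calls, of which 29 were shared (29.9% and 43.9%), and the signs still matched for all 42 and all 55 genes.

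Across all genes tested, which are not independent replicates, the differences under anti-PD-L1 correlated with those under isotype at a Pearson r of 0.76, with those under anti-CD8 at 0.17 and with those of day 14 at 0.62. List medians that were negative under anti-PD-L1 turned positive under anti-CD8 for MHC class II (-0.87 and 0.87), macrophages (-1.08 and 0.62), fibroblast and matrix genes (-0.83 and 0.54), endothelial genes (-1.04 and 0.21) and the interferon-gamma response (-0.59 and 0.28). Under isotype they were negative, at -1.30, -1.36, -0.87, -0.88 and -1.52 in the same order. Under anti-CD8, with 2 WGD- libraries, fibroblast and matrix levels were 5.8 and 4.9 in WGD- and 6.1, 4.7 and 6.5 in WGD+. Macrophage levels were 5.5 and 4.6 against 6.1, 5.2 and 6.0. MHC class II and endothelial levels overlapped too, while interferon-gamma levels did not. Skeletal muscle markers summed to 2715, 43.8 and 1153 CPM in WGD+ anti-CD8 replicates 1 to 3. Their part in these medians was not tested. The medians of T cells (-0.05) and cytotoxic lymphocytes (-0.04) were negative under anti-CD8, and that of neutrophil and monocyte genes was 0.07. The ATF4 target median was positive in all 4 comparisons, at 0.94 under anti-PD-L1, 0.74 under isotype, 0.67 under anti-CD8 and 0.22 at day 14.

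**Figure D3:**
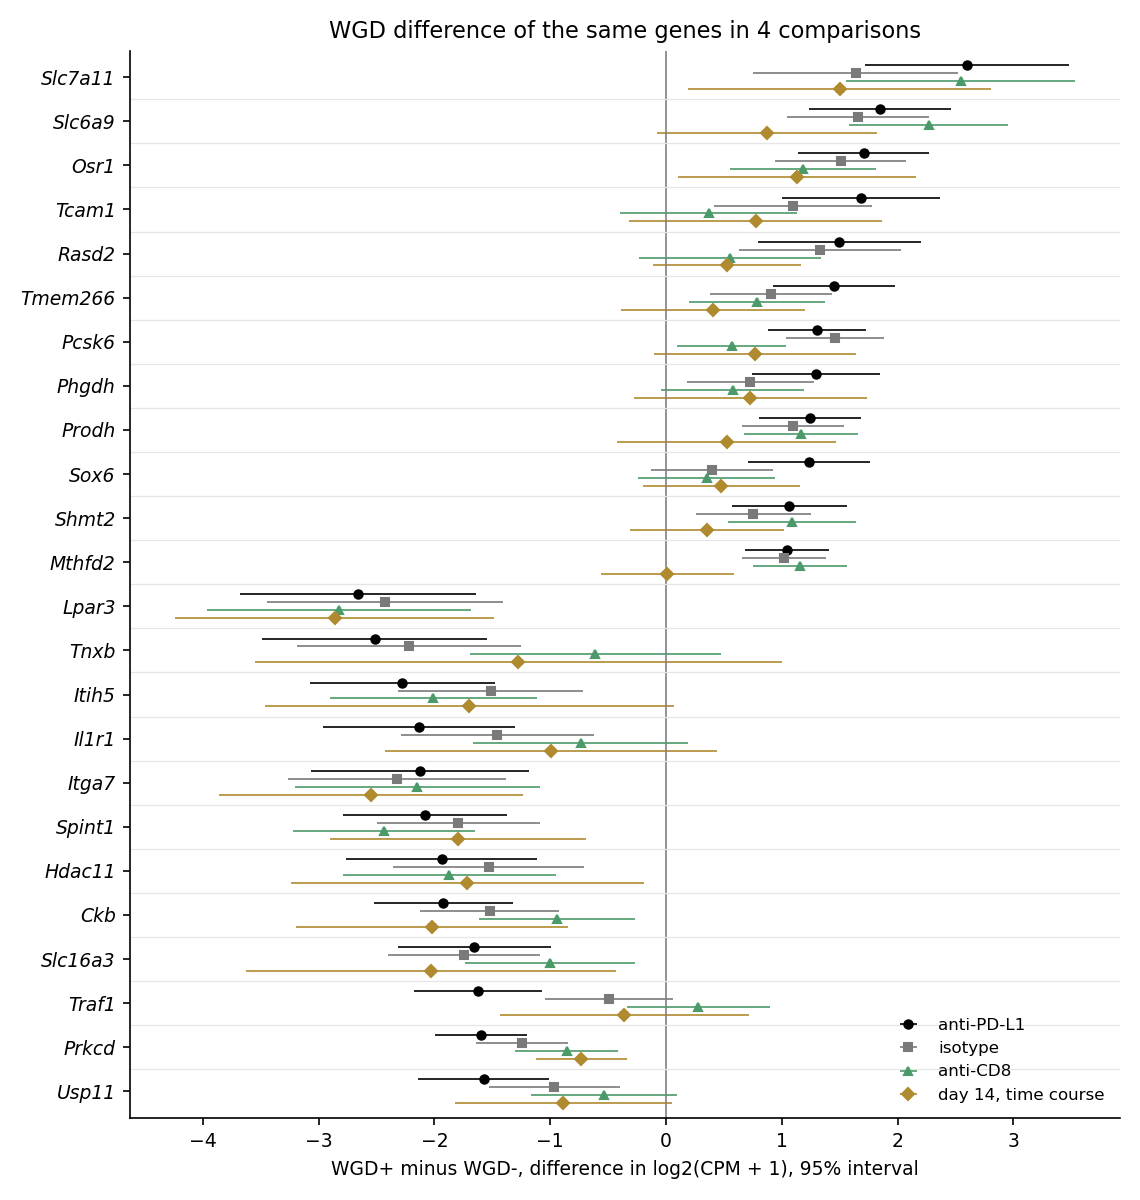
WGD+ minus WGD- difference in log2(CPM + 1), with its 95% limma interval, for the 12 genes with the largest called rise and the 12 with the largest called fall under anti-PD-L1, in 4 comparisons. Of these 24 genes 23 have the same sign in all 4 comparisons; Traf1 is the exception, at 0.28 under anti-CD8.

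Among the genes described above, Lpar3, Itga7 and Slc7a11 differed in the same direction, by 1.50 or more in size, in all 4 comparisons. For Lpar3 they were -2.66 under anti-PD-L1, -2.43 under isotype, -2.82 under anti-CD8 and -2.86 at day 14, and for Itga7 -2.12, -2.32, -2.15 and -2.55. For Slc7a11 they were 2.60, 1.64, 2.54 and 1.50. Without WGD+ isotype replicate 2 the isotype values became -3.23 for Lpar3, -2.81 for Itga7 and 2.24 for Slc7a11. Other genes varied more: Psat1 differed by 0.96 and 0.92 under anti-PD-L1 and isotype, and by 0.14 and 0.15 under anti-CD8 and at day 14, and Traf1 by -1.62, -0.49, 0.28 and -0.36. Mthfd2 differed by 1.05, 1.02 and 1.16 under the antibodies and by 0.01 at day 14. The difference of Csf3r was -1.14 under anti-PD-L1, -0.47 under isotype, 0.07 under anti-CD8 and -0.47 at day 14. None of these contrasts between antibodies was called, and the day 14 values come from another table, so a difference from them was not tested.

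By position, which was looked at after the calls were seen, chromosomes 2 and 14 had the lowest WGD differences. Over the 6201 genes tested with a mean level above 5 the median difference was 0.10, while it was -0.06 for the 511 such genes of chromosome 2 and -0.04 for the 198 of chromosome 14. Chromosome 2 held 9 of the 55 genes that fell, 0.844% of its 1066 genes tested against 0.397% of all, among them Traf1, Itih5, Spint1 and Acp2, a lysosomal phosphatase gene, and none of the 42 that rose. Chromosome 14 held 5 (1.06% of 471), among them Prkcd and Ltb4r1, and none that rose. Chromosomes 11 and 13 held 5 genes that fell as well (0.426% and 0.963%). Relative to all genes, the median level of chromosome 2 was 0.08, 0.04 and 0.10 in WGD- and -0.11, -0.09 and -0.09 in WGD+ libraries, and that of chromosome 14 was 0.13, 0.06 and 0.03 against -0.10, -0.11 and -0.03. On 7 of 20 chromosomes the libraries of the forms did not overlap, 4 lower (2, 5, 8 and 14) and 3 higher (4, 6 and 9) in WGD+. Chromosome 2 also had the lowest median of the 20 under isotype, under anti-CD8 and at day 14. In the WGD+ isotype replicate 2 named above chromosome 2 stood at 0.13, with the WGD- isotype libraries at 0.08 to 0.09 and the other WGD+ isotype libraries at -0.09 and -0.11. These shifts are small, and copy number was not measured.

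**Figure D4:**
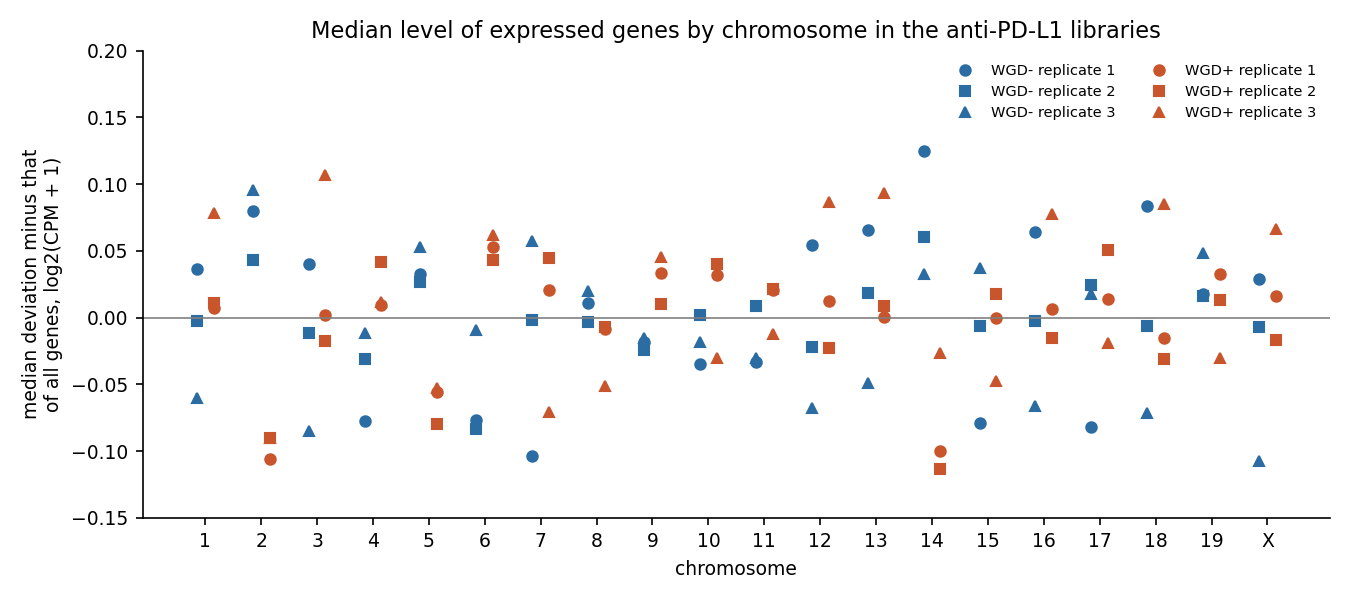
Median deviation of expressed genes (mean level above 5) from their mean over the 17 libraries, by chromosome, minus the same median over all such genes, in log2(CPM + 1). Each symbol is 1 anti-PD-L1 library; on chromosomes 2 and 14 the WGD+ libraries lie below the WGD- libraries.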

How the data were processed

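RNA of whole tumours was sequenced from stranded mRNA libraries, per the labels' protocols. Per the submitters' processing notes, STAR 2.5.1b, mm10 and edgeR were used; no source used here gives the annotation or the read counter. The authors deposited log2 values per gene and library, scaled by trimmed mean of M values factors within each experiment. Read as log2(CPM + 1) they gave whole reads within 0.1 of a read for 100% of values under 2000 reads in every library, and these whole reads gave the depth (9.57 to 15.5 M over the 17 antibody libraries, 1 read being worth 0.0623 to 0.107 CPM). Symbols were matched to GENCODE M21 for 98.5% of genes; 25 symbols turned into dates were left out (up to 0.185% of reads).

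Groups came from the sample titles. A gene needed over 1 CPM in 3 or more libraries. The test on the deposited values was limma 3.58.1 in R 4.3.3 (a mean per group, trend and robust empirical Bayes, two-sided, Benjamini-Hochberg over all genes tested), separately for the antibody table (17 libraries, 13840 genes) and the time course table (12 libraries, 13478 genes). The script was tested on simulated data. Differences between effects were interaction terms.

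Named by rule were the antibody targets, the 12 largest called rises and the 12 largest called falls without overlap between groups and with a mean of 3 or more in the higher group (models without a symbol of their own, pseudogenes and receptor segments left out), the called or smallest-p members of each list, and the smallest-p genes of the interactions. Other genes are marked as chosen after their values were seen. The comparison, lists and rule were chosen with earlier results of these data known. Alternatives were no filter, another pseudocount, quantile normalization, only the libraries compared, a replicate block, leaving out each library, and voom on the recovered reads; library weights and leaving WGD+ isotype replicate 2 out of the fit were added after the data were seen. The replicate numbers are not said to mark a litter, batch or day, and no block was used. Sequences are from RefSeq, GRCm38.p6.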

Additional observations from a re-analysis of the deposited data

How the results depend on the processing

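Against 97 calls under anti-PD-L1 there were 45 with no filter, 202 with quantile normalization (129 higher and 73 lower, against 42 and 55), 3 in a fit of only the 6 libraries, 51 by voom, 234 with WGD+ isotype replicate 2 out of the fit and 5902 with library weights; another pseudocount gave 102. Leaving out 1 library gave 1 to 3091. For isotype (152) the counts were 89 with no filter, 62 with only the libraries compared, 50 by voom and 20 to 85 with 1 library left out. For anti-CD8 (217) they were 62 with no filter, 918 with only the libraries compared, 832 with WGD+ isotype replicate 2 out of the fit and 0 to 610 with 1 library left out. For day 14 (60) they were 15 with no filter, 181 with only the libraries compared, 2 by voom and 0 to 325 with 1 library left out. The difference of effects against isotype gave 4 calls with library weights and 0 otherwise; that against anti-CD8 gave 5671 with library weights and 0 to 705 with 1 library left out. The cause of these shifts was not tested. With the replicate number as a block, calls were 25 for anti-PD-L1, 63 for isotype, 62 for anti-CD8 and 35 for day 14. Both differences of effects gave 0. Same-numbered anti-PD-L1 libraries correlated at -0.24, -0.14 and -0.48 in their deviations, and differently numbered ones at -0.44 to 0.45. Deviations from a mean of 3 are tied to each other, so these values cannot show whether the numbers pair libraries. With 1 library left out, 2 named genes changed sign, neither of them called: Csn3 (-0.99 to 0.46) and Pdcd1 (-1.51 to 0.15). Depth limits the lowest genes: 1 read is worth up to 0.107 CPM.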

Other observations

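Lists not described above held no called gene. The unfolded protein response genes include chaperones of the endoplasmic reticulum and are induced beside ATF4 targets under folding stress. Their median difference was -0.16 over 10 genes, with 4 positive and 6 negative, and 1 at an unadjusted p under 0.05. Herpud1, a gene of that response, was at 5.51, 4.88 and 4.93 in WGD- and at 5.48, 5.51 and 5.58 in WGD+ tumours (difference 0.42, SE 0.16, limma adjusted p = 0.164). Gdf15, a stress cytokine counted among p53 targets, was at 3.73, 4.05 and 4.64 against 5.55, 5.40 and 4.52 (difference 1.02, SE 0.34, adjusted p = 0.127).

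Epithelial markers split. Krt19, a keratin of simple epithelium, was at 6.26, 3.94 and 4.05 in WGD- and at 3.09, 2.54 and 1.90 in WGD+ tumours (difference -2.24, SE 0.52, adjusted p = 0.0546), while Esrp1, an epithelial splicing factor, was at 4.85, 5.40 and 5.73 against 6.06, 6.28 and 6.08 (difference 0.81, SE 0.19, adjusted p = 0.0540). Crabp2, which binds retinoic acid in the cell, was at 4.62, 5.51 and 5.72 against 3.95, 3.47 and 3.06 (difference -1.79, SE 0.47, adjusted p = 0.0760). The groups did not overlap for Krt19, Esrp1 or Crabp2, as for 20.2% of all genes, and none of the 3 was called.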
